A study of Mus musculus with 9 samples.

Results

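The protein disulfide isomerases and the ER oxidases that recharge them were followed in plasma cells of the mouse spleen. The 10 members were named by symbol: the isomerases P4hb, Pdia3, Pdia4, Pdia5, Pdia6, Txndc5 and Txndc11, the thiol-dependent retention factor Erp44, and the oxidases Ero1l and Ero1lb. All 10 were among the 46958 genes of the count table, and all 10 were among the 14199 genes that passed the filter on low counts and were tested. RNA was sequenced from CD138-positive cells of whole spleens, with 3 mice for each of 3 genotypes and a library for each mouse. All mice were 3 months old, had not been immunized and were of a mixed C57/BL6x129/SVxBALB/c background. The genotypes were WT, DH-LMP2A and kFRA, and the study asks how plasma cells are affected by the monoclonal free light chain that kFRA mice carry, which comes from a case of LCDD, a disease of light chain deposits. DH-LMP2A is known as an allele with a viral gene in the heavy-chain locus, whose membrane protein gives a signal like that of the B cell receptor. The cells were isolated with magnetic beads, and per the series' design text the fraction was not pure. The labels give no further account of the alleles, and do not say whether kFRA mice carried DH-LMP2A as well.

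The endoplasmic reticulum (ER) is where secreted proteins fold, and antibodies are held together by disulfide bonds made there. Isomerases of the thioredoxin fold pass disulfides to client proteins or reshuffle wrong ones, and the ERO1 oxidases take the electrons on to oxygen, yielding hydrogen peroxide. Plasma cells carry a large load of this work, and many of the genes involved are induced by the unfolded protein response through XBP1 and ATF6.

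Total counts ranged from 15449026 to 21558128 per library, so 3 counts, taken as the floor of detection, stood for 0.139 to 0.194 CPM (counts over the total of a library, on a common scale), and immunoglobulin genes took 27.3 to 55.41% of the counts. All levels below are CPM scaled with TMM factors, edgeR's trimmed mean of M values. The CD138 gene Sdc1 and the other plasma cell markers were present in every library, and the 8 markers summed to 18784.7 to 24132.2 CPM in WT, 33976.6 to 46894.6 in DH-LMP2A and 20223.0 to 31961.5 in kFRA. Most of each sum was Jchain, at 15677.9 to 19911.5, 27009.9 to 38647.3 and 14680.0 to 25428.4 CPM in the same order. Of the 8 markers 1 was called higher and 1 lower in kFRA against WT, and 2 and 1 in DH-LMP2A against WT. The lower marker in both was Tnfrsf17 (log2 fold change -1.69, edgeR adjusted p = 0.00253, and -1.16, adjusted p = 0.0159). RNA of other cells was present too. The 8 B cell markers summed to 332.8 to 657.7 CPM in WT, 415.3 to 590.3 in DH-LMP2A and 231.9 to 291.3 in kFRA, and 8 myeloid markers to 1986.3 to 3368.2, 524.3 to 1603.2 and 871.3 to 1527.9. The 8 erythroid markers summed to 39.3 to 341.4 CPM in WT against 2566.2 to 13641.4 in DH-LMP2A and 1167.4 to 2807.0 in kFRA. The 8 markers of pancreatic acinar cells, a secretory cell type, summed to 1.21 to 73.59 CPM in WT, 215.1 to 1013.8 in DH-LMP2A and 40.9 to 1848.6 in kFRA. Their median log2 fold changes against WT were 3.96 in DH-LMP2A, where 0 of the 8 were called, and 4.36 in kFRA, where 1 was. Their part in the differences from WT was not tested. Among the kFRA libraries, replicate 2 stood apart, with 29.21% immunoglobulin counts (44.04 and 45.36% in the others), the highest acinar sum and 614.2 CPM of the 8 cell cycle genes (187.3 and 223.0 in the others). The log2 CPM of Xist, an RNA of female cells, was 9.613, -0.83 and 8.951 in WT and 9.851, 9.785 and 2.198 in DH-LMP2A. In kFRA it was 0.489, 9.519 and 1.696, with replicate 2 alone high. High and low values were thus not balanced over the genotypes. No marker of any list was at 0 in every library of a group. In these bulk samples fewer cells of a type and less RNA per cell cannot be told apart.

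Promoter sequence is shown first, for the members whose windows held a binding motif of the unfolded protein response. In RefSeq GRCm38.p6, windows of 300 bases (250 before and 50 after a transcription start) were found for all 10 members, 14 windows in all, and were searched on both strands. The ER stress element, bound by ATF6 together with NF-Y, was searched as CCAAT, 9 bases of any kind and CCACG, and was present in 0.119% of 32851 windows of the genome. Among the members it was found in Pdia6 and Ero1lb. The same element without its last base, ending in CCAC, which includes every match of the full form and was tried after it, was present in 0.365% of the windows and was found in Pdia3 and Pdia4 as well. The element TGACGTGG, bound by XBP1, was present in 0.676% of the windows and was found in Txndc5 and Txndc11. ATTGG, any base and CCACG, a second form of the ER stress element, and TTGCATCA, the amino acid response element bound by ATF4, were in 0.0365% and 0.895% of the windows and in none of the members. Each sequence is written 5′ to 3′ on the strand of its gene with the match in capitals. In Ero1lb and Pdia4 the motif reads on the opposite strand.
Pdia6, chr12:17266470-17266530, plus strand, match 98 to 80 bases before the start: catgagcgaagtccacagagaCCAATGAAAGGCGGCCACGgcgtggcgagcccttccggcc
Ero1lb, chr13:12565661-12565721, plus strand, match 201 to 183 bases before the start: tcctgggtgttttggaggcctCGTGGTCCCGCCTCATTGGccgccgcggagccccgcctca
Pdia4, chr6:47813581-47813640, minus strand, match 107 to 90 bases before the start: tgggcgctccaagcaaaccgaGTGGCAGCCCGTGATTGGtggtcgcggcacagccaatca
Pdia3, chr2:121413852-121413901, plus strand, match 29 to 12 bases before the start: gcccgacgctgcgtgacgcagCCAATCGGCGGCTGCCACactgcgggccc
Txndc5, chr13:38528024-38528073, minus strand, match 138 to 131 bases before the most downstream of its RefSeq starts: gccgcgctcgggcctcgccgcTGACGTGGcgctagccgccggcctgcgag
Txndc11, chr16:11134606-11134655, minus strand, match 102 to 95 bases before the start: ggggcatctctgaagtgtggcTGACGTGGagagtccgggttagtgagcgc
For Pdia3, Txndc5 and Txndc11 the RefSeq start used lies inside the gene span printed below, and so does the match. A match is a description of the letters only. No binding was measured here.

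The summed RNA level of the members, which was not tested, and its make-up differed among the libraries of the 3 genotypes. Divided by gene length, the 10 members summed to 1568.3, 1822.8 and 2272.4 CPM per kb in the WT libraries, 4170.2, 3259.3 and 3695.4 in DH-LMP2A and 2758.0, 2429.7 and 2633.0 in kFRA. The 3 groups did not overlap on this sum. In WT the highest level per kb was that of Txndc5 (mean 658.6 CPM per kb), followed by Pdia4 (514.1), P4hb (224.9), Pdia3 (199.0), Pdia6 (161.5), Txndc11 (49.3), Ero1lb (37.39), Erp44 (35.71), Ero1l (6.219) and Pdia5 (1.128). Neighbours whose WT libraries overlapped were Txndc5 and Pdia4, P4hb and Pdia3, Pdia3 and Pdia6, and Ero1lb and Erp44.

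In DH-LMP2A the first place belonged to Pdia4, at 1716 CPM per kb, with Txndc5 (618.1) and Pdia6 (500.4) next and overlapping, then P4hb (327.5) and Pdia3 (318.2), also overlapping. Ero1lb (79.5), Erp44 (72.33) and Txndc11 (68.16) followed, with Erp44 overlapping both, and Ero1l (7.768) and Pdia5 (0.4605) were last. In kFRA Pdia4 was again first, at 1152 CPM per kb. Pdia6 (341.6), P4hb (311.1), Pdia3 (310.6) and Txndc5 (287.0) formed a run in which each neighbour overlapped the next. Ero1lb (76.69) came next, then Txndc11 (62.32) and Erp44 (58.93), which overlapped, and Ero1l (5.93) and Pdia5 (0.4055) closed the order. As a share of the summed level per kb, Pdia4 made up 26.98 ± 3.364% in WT, with 46.24 ± 0.827% in DH-LMP2A and 44.16 ± 1.53% in kFRA, while Txndc5 made up 35.01 ± 4.703%, 16.75 ± 1.065% and 11.06 ± 1.996% (SD, n = 3 each).

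**Figure D1:**
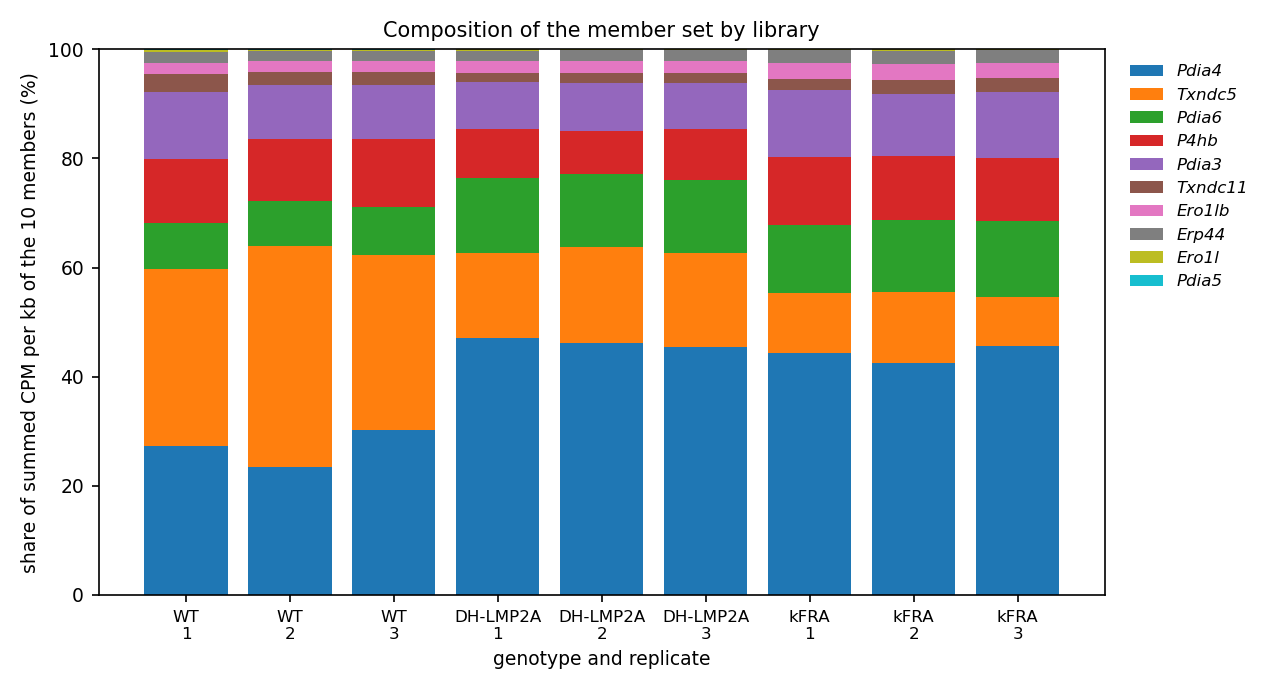
Share of each member in the summed level per kb (percent, vertical axis) in each of the 9 libraries, grouped by genotype. The Txndc5 share is largest in the WT libraries, with a mean of 35.01%, and the Pdia4 share is largest in DH-LMP2A and kFRA, with means of 46.24% and 44.16%.

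Against WT, 5 members were higher in kFRA and 2 were lower by edgeR's quasi-likelihood test at an adjusted p under 0.05. Among all genes tested 17.8% were called in that comparison, 6.68% higher and 11.1% lower. Pdia3, Pdia4, Pdia6, Erp44 and Ero1lb rose, Txndc5 and Pdia5 fell, and P4hb, Txndc11 and Ero1l did not pass. In DH-LMP2A against WT, Pdia3, Pdia4, Pdia6, Erp44 and Ero1lb were called higher and no member lower, where 12.4% of all genes were called, 5.07% higher and 7.3% lower. Both comparisons use the same 3 WT libraries, so their results are not independent. Between kFRA and DH-LMP2A only Txndc5 passed, lower in kFRA, where 5.02% of all genes were called, 3.3% lower and 1.73% higher. The median log2 fold change of the 10 members was 0.56 in kFRA and 0.61 in DH-LMP2A when each was set against WT, beside -0.04 and -0.01 over all genes tested. Between kFRA and DH-LMP2A it was -0.24, beside -0.00. Leaving out kFRA replicate 2 raised the genes called from 2523 of 14199 to 5632 of 14518 in kFRA against WT, with 6 members among them. In kFRA against DH-LMP2A it raised them from 713 to 3299 (1697 higher and 1602 lower), with Txndc5 still the 1 member called.

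The libraries of kFRA and WT did not overlap for 9 members (34.3% of all genes), of which 7 were higher in kFRA (14.2% of all genes) and 2 lower (20.2%). For DH-LMP2A and WT they did not overlap for 7 members (36.6% of all genes), 6 of them higher in DH-LMP2A (17.5% of all genes) and 1 lower (19.1%). For kFRA and DH-LMP2A they did not overlap for 5 members (25.6% of all genes), all lower in kFRA (13.9% of all genes, with 11.6% higher). Scaling by library size alone moved the median of all genes to 0.17, 0.33 and -0.14 in the 3 comparisons. Under it 7 members passed in kFRA against WT (6 higher and 1 lower), 7 in DH-LMP2A against WT (all higher) and 1 in kFRA against DH-LMP2A. The balance over all genes turned as well, from 948 higher and 1575 lower to 2363 and 917 in kFRA against WT, and from 720 and 1036 to 2053 and 518 in DH-LMP2A against WT. In kFRA against DH-LMP2A it went from 245 higher and 468 lower to 127 and 361.

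**Figure D2:**
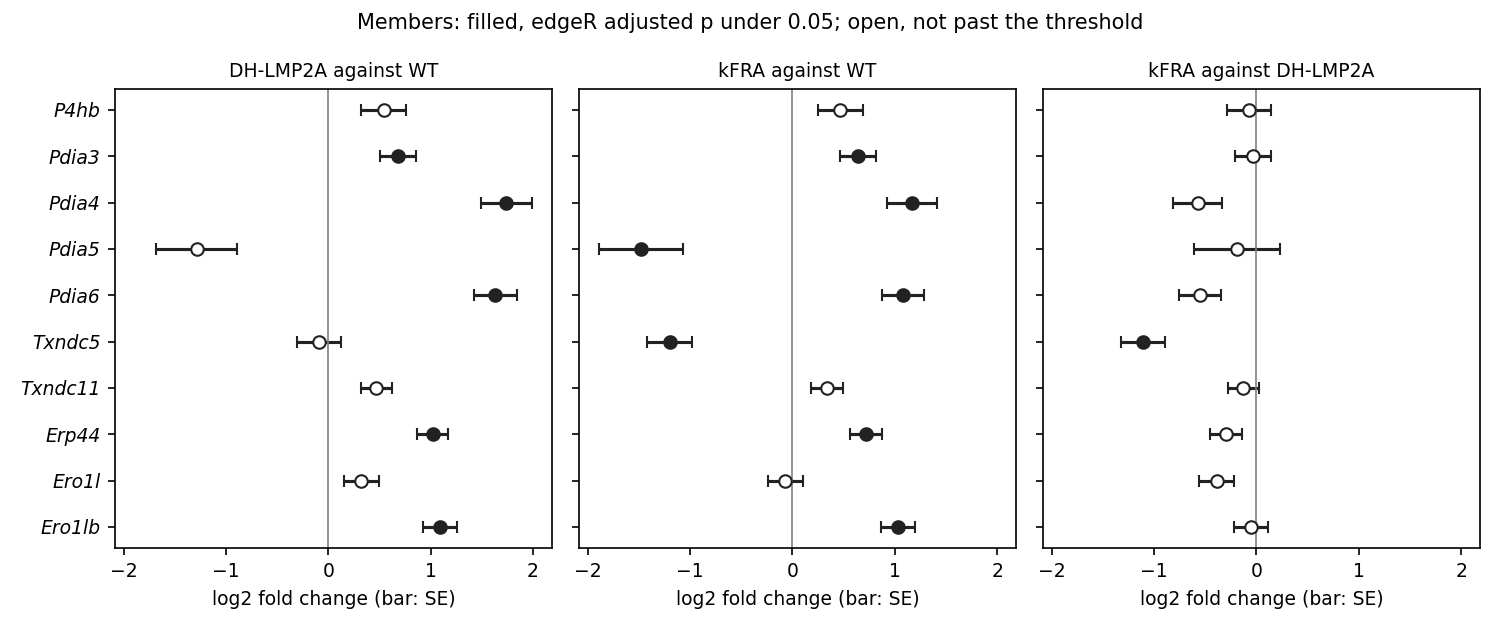
Log2 fold change (horizontal axis) of each member in the 3 comparisons, with bars of 1 standard error. Filled points have an edgeR adjusted p under 0.05: 7 members in kFRA against WT, 5 in DH-LMP2A against WT and Txndc5 alone in kFRA against DH-LMP2A.

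Pdia4 and Pdia6 were the members with the largest rises against WT in both comparisons. Pdia4, also known as ERp72 (chr6:47796141-47813430, minus strand), is an isomerase that binds nascent and unassembled immunoglobulin chains. Its level was 1023.6, 1028.2 and 1648.0 CPM in the WT libraries, 4708.3, 3615.4 and 4025.7 in DH-LMP2A and 2935.9, 2479.2 and 2878.5 in kFRA. The 3 genotypes did not overlap, with WT lowest and DH-LMP2A highest. The log2 fold change was 1.74 (SE 0.249, a fold of 3.34) in DH-LMP2A against WT (edgeR adjusted p = 0.00227) and 1.16 (SE 0.245, a fold of 2.24) in kFRA against WT (adjusted p = 0.0122). Between kFRA and DH-LMP2A it was -0.57 (SE 0.243), with an adjusted p of 0.205. Without WT replicate 2 the call in kFRA against WT was lost (log2 fold change 1.05, adjusted p = 0.0543).

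Pdia6, also known as P5 (chr12:17266545-17284770, plus strand), is an isomerase that works with the ER chaperone BiP and acts on the stress sensor IRE1. Its level was 499.4, 564.7 and 750.2 CPM in WT, 2147.3, 1639.4 and 1834.7 in DH-LMP2A and 1285.0, 1191.2 and 1361.3 in kFRA. The order of the genotypes was that of Pdia4, again without overlap. The log2 fold change was 1.63 (SE 0.208, a fold of 3.1) in DH-LMP2A against WT (edgeR adjusted p = 0.00119) and 1.08 (SE 0.205, a fold of 2.12) in kFRA against WT (adjusted p = 0.00743). In kFRA against DH-LMP2A it was -0.55 (SE 0.203, adjusted p = 0.16). Pdia4 and Pdia6 were the closest pair among the members, their library profiles of centred log2 CPM differing by a root mean square of 0.09 over the 9 libraries. Their ratio per kb was 3.16 ± 0.296 for WT, 3.43 ± 0.0108 for DH-LMP2A and 3.37 ± 0.17 for kFRA (SD, n = 3 each).

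**Figure D3:**
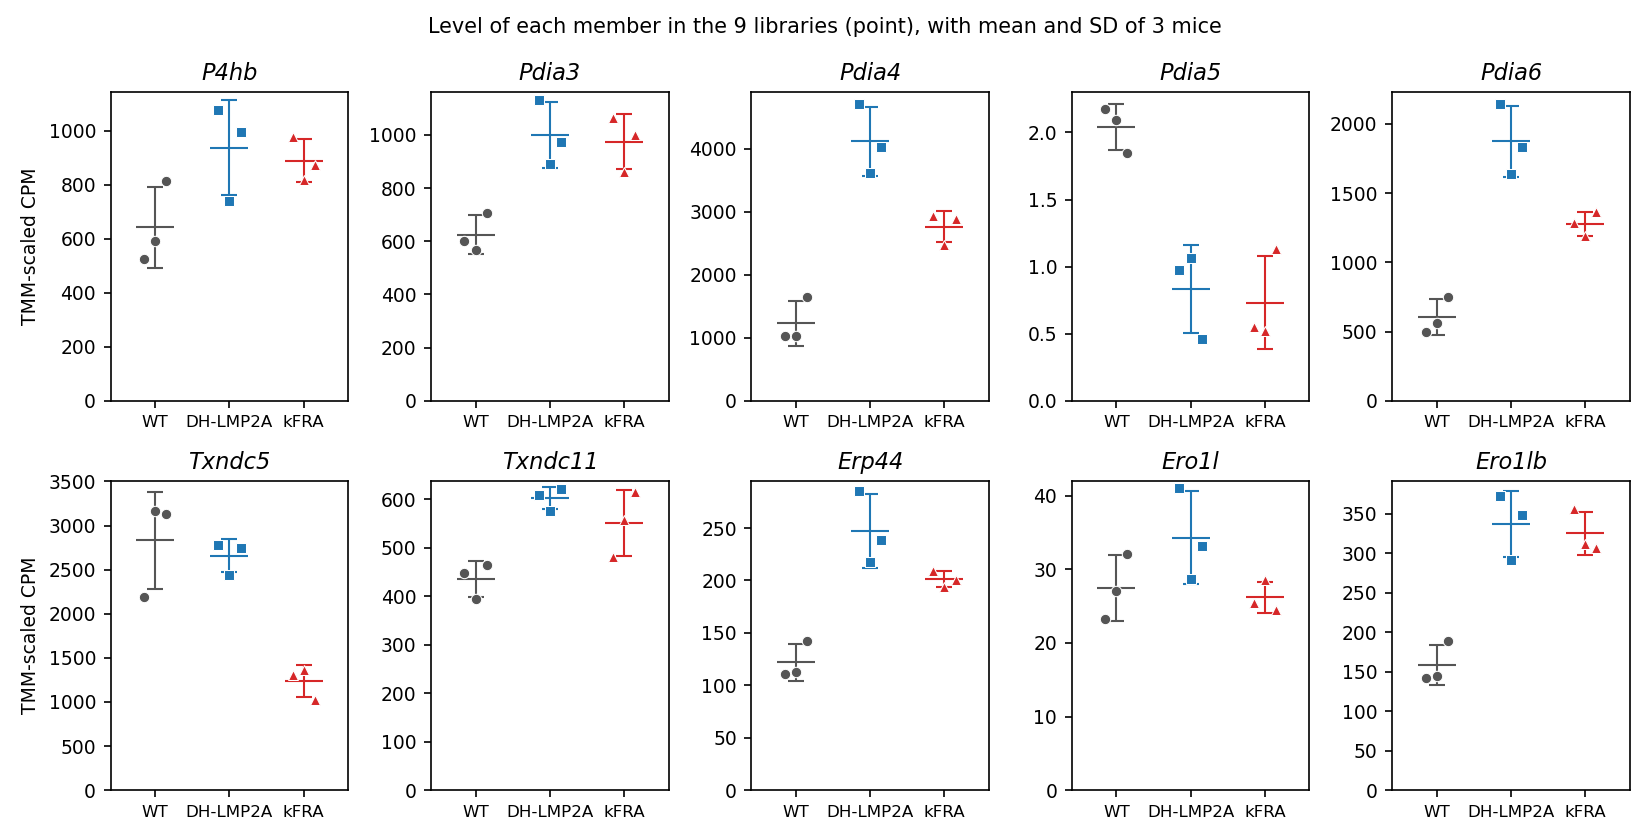
TMM-scaled CPM of each of the 10 members (vertical axes, a panel for each gene) in the 9 libraries by genotype, with the mean and SD of each group. For Pdia4 and Pdia6 all WT libraries lie below all kFRA libraries and these below all DH-LMP2A libraries, while for Txndc5 the kFRA libraries, from 1027.0 to 1364.5 CPM, lie below the rest.

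P4hb and Pdia3 were also above WT on average, by less. P4hb (chr11:120560298-120573253, minus strand) encodes PDI itself, the founding isomerase, which is also a subunit of prolyl 4-hydroxylase and of the microsomal triglyceride transfer protein. Its level was 526.2, 591.2 and 812.8 CPM in WT, 1076.5, 739.4 and 994.8 in DH-LMP2A and 978.4, 819.5 and 872.3 in kFRA. DH-LMP2A replicate 2 lay below WT replicate 3, while all kFRA libraries lay above WT. P4hb passed in neither comparison with WT, with log2 fold changes of 0.54 (SE 0.218, edgeR adjusted p = 0.147) in DH-LMP2A and 0.47 (SE 0.218, adjusted p = 0.159) in kFRA. With library size alone as the scale it passed in both, at adjusted p = 0.0122 and 0.0278.

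Pdia3 (chr2:121413775-121438687, plus strand) encodes ERp57, the isomerase that serves glycoproteins held by calnexin and calreticulin and that helps load MHC class I. Its level was 599.9, 566.9 and 707.4 CPM in WT, 1132.1, 890.2 and 974.6 in DH-LMP2A and 1063.6, 860.5 and 1000.6 in kFRA. All libraries of both other genotypes lay above all WT libraries, and overlapped each other. Pdia3 rose by 0.68 on the log2 scale in DH-LMP2A (SE 0.175, edgeR adjusted p = 0.0347) and by 0.64 in kFRA (SE 0.175, adjusted p = 0.0345). Both calls were close to the threshold. In kFRA against WT the call was lost without kFRA replicate 1 (adjusted p = 0.127), kFRA replicate 3 (0.0856), WT replicate 1 (0.091) or WT replicate 2 (0.124). In DH-LMP2A against WT it was lost without DH-LMP2A replicate 1 (0.165), 2 (0.0654) or 3 (0.0943), or without WT replicate 1 (0.0966) or 2 (0.129).

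The ratio of Pdia4 to P4hb per kb was 2.32, 2.07 and 2.42 in WT, 5.22, 5.83 and 4.83 in DH-LMP2A and 3.58, 3.61 and 3.94 in kFRA. The groups did not overlap, with WT lowest and DH-LMP2A highest. A ratio taken within a library does not depend on the scaling.

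Txndc5 was lower in kFRA than in both other genotypes. Txndc5 (chr13:38500273-38528824, minus strand) encodes ERp46, an isomerase with 3 thioredoxin domains that is oxidised by peroxiredoxin 4 and is abundant in plasma cells. Its level was 2192.2, 3167.6 and 3132.3 CPM in WT, 2781.9, 2441.4 and 2746.9 in DH-LMP2A and 1309.3, 1364.5 and 1027.0 in kFRA. WT and DH-LMP2A overlapped, and every kFRA library lay below every other library. Txndc5 fell in kFRA by 1.20 on the log2 scale against WT (SE 0.219, edgeR adjusted p = 0.00634) and by 1.11 against DH-LMP2A (SE 0.218, adjusted p = 0.0206), that is to 0.436 and 0.464 of their levels. In DH-LMP2A against WT the log2 fold change was -0.09 (SE 0.216, adjusted p = 0.849), and 0.26 when library size alone was the scale. The call against WT held without each library in turn. The call against DH-LMP2A was lost without DH-LMP2A replicate 1 (adjusted p = 0.105), 2 (0.0682) or 3 (0.0699) or kFRA replicate 1 (0.0874) or 3 (0.0774).

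Set against Pdia4 within each library, Txndc5 stood at 1.2, 1.72 and 1.06 per kb in WT, at 0.33, 0.377 and 0.381 in DH-LMP2A and at 0.249, 0.307 and 0.199 in kFRA. WT was above both other genotypes on this ratio, and every kFRA library was below every DH-LMP2A library. Bmp6, which shares 30 bases of exon with Txndc5 on the other strand, reached at most 5.458 CPM. Gm31834 overlaps 311 bases of Txndc5 exon (7.24% of its length) on the other strand and was not analysed here.

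**Figure D4:**
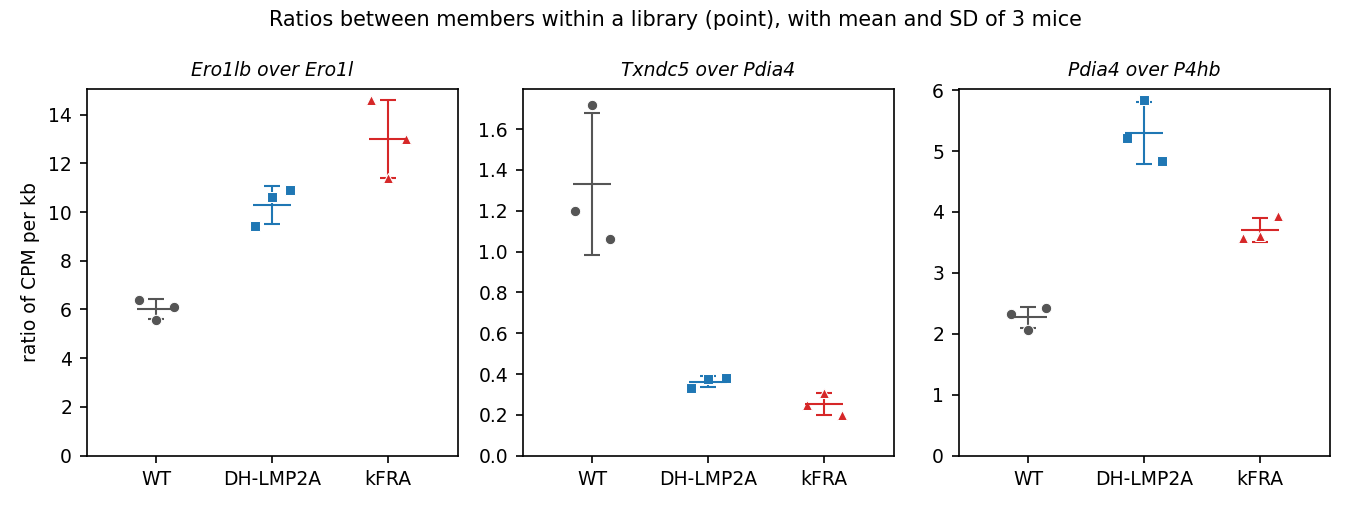
Ratio of levels per kb between pairs of members (vertical axes) in the 9 libraries by genotype, with the mean and SD of each group. Txndc5 over Pdia4 is above 1 in every WT library and below 0.4 in every other library, and Ero1lb over Ero1l is lowest in WT and highest in kFRA.

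Pdia5 and Txndc11 are the remaining isomerases. Pdia5 (chr16:35397313-35490873, minus strand), also known as PDIR, is known to act on disulfides of the stress sensor ATF6. It was the lowest member, with 43, 41 and 29 counts in WT, 23, 23 and 10 in DH-LMP2A and 8, 11 and 18 in kFRA, or 2.178, 2.091 and 1.847 CPM, 0.973, 1.067 and 0.458 CPM, and 0.547, 0.523 and 1.129 CPM. WT was above both other genotypes, which overlapped each other. Pdia5 fell in kFRA against WT by 1.48 in log2 terms (SE 0.408, edgeR adjusted p = 0.0357), while the log2 fold change of -1.29 in DH-LMP2A (SE 0.393, adjusted p = 0.065) did not pass. In kFRA against WT the call was lost without kFRA replicate 1 (adjusted p = 0.125) or 2 (0.0668), and without WT replicate 1 (0.0889), 2 (0.1) or 3 (0.0609). At these counts the sampling error of a single library is large. Of the 8 B cell markers, 5 were lower in kFRA than in WT with none higher, and of the 8 myeloid markers 4 were lower with none higher. In DH-LMP2A against WT 2 B cell markers were called higher and 2 lower, and 1 myeloid marker lower with none higher. Among all genes tested 11.1% were called lower in kFRA and 7.3% in DH-LMP2A. The part of B cell and myeloid RNA in the Pdia5 difference was not tested.

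Txndc11 (chr16:11074911-11134650, minus strand) encodes a membrane-bound thioredoxin-domain protein of the ER that takes part in the degradation of misfolded proteins. Its level was 448.3, 394.7 and 463.6 CPM in WT, 609.1, 576.3 and 621.1 in DH-LMP2A and 480.2, 556.5 and 615.0 in kFRA. All libraries of the other genotypes lay above WT, but the log2 fold changes of 0.47 (SE 0.152, edgeR adjusted p = 0.0791) and 0.34 (SE 0.152, adjusted p = 0.146) did not pass. The DESeq2 Wald test called both, at adjusted p = 0.00756 and 0.0374. Catsper2 and Atp6v1c2 share 18 and 50 bases of exon with Pdia3 and Pdia6 on the other strand and reached at most 4.642 and 0.5233 CPM. Snn, at 48.78 to 101.5 CPM, shares 75 bases of exon with Txndc11 on the other strand, and the strand setting of the counting is not given in the sources used here.

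Erp44 (chr4:48193323-48279558, minus strand) cycles between the ER and the Golgi, retrieves unassembled immunoglobulin M and holds the ERO1 oxidases in the ER. Its level was 110.8, 112.8 and 142.5 CPM in WT, 285.6, 217.2 and 238.9 in DH-LMP2A and 209.2, 194.2 and 200.9 in kFRA. The 3 genotypes did not overlap. Erp44 rose by a log2 fold change of 1.02 in DH-LMP2A (SE 0.155, a fold of 2.03, edgeR adjusted p = 0.00309) and of 0.72 in kFRA (SE 0.155, a fold of 1.65, adjusted p = 0.0129). Between kFRA and DH-LMP2A the log2 fold change was -0.30 (SE 0.154, adjusted p = 0.283). The call in kFRA was lost without kFRA replicate 1 (adjusted p = 0.0537) or WT replicate 2 (0.0621).

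Of the ERO1 oxidases, Ero1lb rose in both comparisons with WT and Ero1l passed in none. Ero1lb (chr13:12565883-12609526, plus strand) encodes ERO1 beta, the form known from secretory cells and from induction by the unfolded protein response. Its level was 142.3, 144.8 and 188.2 CPM in WT, 371.8, 290.7 and 348.1 in DH-LMP2A and 356.1, 311.8 and 306.9 in kFRA. WT lay below both other genotypes, which overlapped. Ero1lb rose by a log2 fold change of 1.09 in DH-LMP2A (SE 0.166, a fold of 2.13, edgeR adjusted p = 0.00315) and of 1.04 in kFRA (SE 0.166, a fold of 2.05, adjusted p = 0.00336), and differed by -0.05 (SE 0.164, adjusted p = 0.879) between them.

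Ero1l (chr14:45283092-45318572, minus strand) encodes ERO1 alpha, the widely expressed form, known as a target of hypoxia. Its level was 23.2, 27.03 and 32.1 CPM in WT, 41.04, 28.63 and 33.18 in DH-LMP2A and 25.44, 28.54 and 24.53 in kFRA. WT overlapped both other genotypes, and kFRA lay just below DH-LMP2A. No comparison passed: the log2 fold change was 0.32 in DH-LMP2A (SE 0.169, edgeR adjusted p = 0.269), -0.07 in kFRA (SE 0.17, adjusted p = 0.796; 0.17 with library size alone) and -0.39 between kFRA and DH-LMP2A (SE 0.169, adjusted p = 0.216). The ratio of Ero1lb to Ero1l per kb was 6.39, 5.58 and 6.11 in WT, 9.44, 10.6 and 10.9 in DH-LMP2A and 14.6, 11.4 and 13.0 in kFRA. The groups did not overlap, with kFRA highest.

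Between kFRA and DH-LMP2A the log2 fold changes of all 10 members lay between -1.11 and -0.04, with Pdia3 turning to 0.003 when the immunoglobulin genes were left out of the scaling. Over all alternatives tried, P4hb, Pdia3 and Ero1lb each turned above 0 in 4 and Pdia5 in 2. They reached 0.24, 0.13, 0.15 and 0.08. Besides Txndc5, the members whose kFRA libraries all lay below DH-LMP2A were Pdia4, Pdia6, Erp44 and Ero1l, and none of these passed. P4hb differed by -0.07 (SE 0.217, edgeR adjusted p = 0.868), Pdia3 by -0.04 (SE 0.174, adjusted p = 0.927), Txndc11 by -0.13 (SE 0.151, adjusted p = 0.643) and Pdia5 by -0.19 (SE 0.421, adjusted p = 0.821).

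Some of the marker sums given above set a genotype apart, and others overlapped. The B cell sum was lower in every kFRA library than in all other libraries, while WT and DH-LMP2A overlapped. The myeloid sum was higher and the erythroid sum lower in WT than in both other genotypes. The plasma cell sum was highest in DH-LMP2A, with WT and kFRA overlapping, and the acinar sum of kFRA overlapped both others. With the mean log2 CPM of the B cell markers as a covariate, no member passed in kFRA against WT, 4 passed in DH-LMP2A against WT and none in kFRA against DH-LMP2A. Calls over all 14199 genes fell too, from 2523 to 321, from 1756 to 830 and from 713 to 242. For kFRA against WT, Txndc5 had a log2 fold change of -1.16 with the covariate (SE 0.446, edgeR adjusted p = 0.38), beside -1.20 without it (SE 0.219). Pdia5 went to -2.29 (SE 0.853) and Ero1lb to 0.76 (SE 0.325), while Pdia4 went from 1.16 to 0.56 (SE 0.437) and Pdia6 from 1.08 to 0.67 (SE 0.39). The B cell marker mean was 3.736 to 4.269 in kFRA, 4.5 to 5.608 in DH-LMP2A and 5.127 to 6.242 in WT, so kFRA overlapped neither other genotype and the B cell signal and the kFRA genotype cannot be told apart. With the mean log2 CPM of the plasma cell markers as a covariate, which was added after the data had been seen, 5 members passed in kFRA against WT, 3 in DH-LMP2A against WT and 1 in kFRA against DH-LMP2A, with 2194, 880 and 2099 calls over all genes. In DH-LMP2A against WT the calls of Pdia3 (log2 fold change 0.40, adjusted p = 0.313) and Erp44 (0.77, adjusted p = 0.0501) were lost under it, while Pdia4, Pdia6 and Ero1lb passed. Xbp1, Mzb1 and Jchain, which are ER-related themselves, are among these 8 markers. With the log2 CPM of Xist as a covariate 5, 5 and 1 members passed in the same 3 comparisons, with 2236, 1968 and 548 calls over all genes. In kFRA against WT the calls of Pdia3 (log2 fold change 0.643, edgeR adjusted p = 0.0531) and Pdia5 (-1.454, adjusted p = 0.0545) were lost under it. The part of other cells in the results was not tested further.

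Beyond the members, 16 other genes of the isomerase family were listed. Of these 10 were tested, and 1 was higher in kFRA and 4 in DH-LMP2A, none lower, with median log2 fold changes of -0.09 and 0.22 (all genes -0.04 and -0.01). Erp29, an ER chaperone with a thioredoxin fold but no active site, rose in both: its level was 146.1, 141.5 and 201.3 CPM in WT, 465.1, 352.3 and 425.6 in DH-LMP2A and 344.3, 273.2 and 415.6 in kFRA, for log2 fold changes of 1.35 (SE 0.213, edgeR adjusted p = 0.00366) and 1.08 (SE 0.212, adjusted p = 0.00872). Txndc12 and Txndc16, thioredoxin-domain proteins of the secretory pathway, and Txndc15 also rose in DH-LMP2A against WT. The call of Txndc15 was lost without DH-LMP2A replicate 1 (adjusted p = 0.0525).

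Txndc12 and Txndc16 were the 2 genes of that list lower in kFRA than in DH-LMP2A. Txndc12 stood at 17.68, 17.7 and 16.62 CPM in WT, 34.53, 30.67 and 33.73 in DH-LMP2A and 13.54, 15.7 and 18.44 in kFRA, a log2 fold change of -1.05 between kFRA and DH-LMP2A (SE 0.136, edgeR adjusted p = 0.00171). Txndc16 stood at 40.87, 33.31 and 32.99 CPM in WT, 74.25, 62.82 and 80.77 in DH-LMP2A and 32.35, 37.35 and 32.99 in kFRA, a log2 fold change of -1.08 (SE 0.143, adjusted p = 0.00193). For both genes kFRA overlapped WT and lay below DH-LMP2A. Txndc5 shares with them a level in kFRA below DH-LMP2A, but in kFRA against WT their log2 fold changes were -0.12 (adjusted p = 0.53) and -0.06 (adjusted p = 0.776), where Txndc5 fell.

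Among 9 other ER redox enzymes, 8 were tested. In kFRA against WT 2 were higher and none lower (median log2 fold change 0.44), in DH-LMP2A against WT 3 were higher and none lower (median 0.15), and in kFRA against DH-LMP2A none passed (median 0.10). Gpx7, a peroxidase that uses the hydrogen peroxide made by the ERO1 oxidases to oxidise PDI, was near the floor in WT at 0.7091, 1.071 and 1.019 CPM and stood at 8.377, 6.124 and 7.322 in DH-LMP2A and 3.762, 3.187 and 4.955 in kFRA. The 3 genotypes did not overlap. Gpx7 rose by 2.96 in log2 terms (SE 0.274, a fold of 7.77, edgeR adjusted p = 0.000158) in DH-LMP2A and 2.08 (SE 0.273, a fold of 4.23, adjusted p = 0.00106) in kFRA, more than any of the 10 members. The other calls were those of Qsox1, a sulfhydryl oxidase of the Golgi, in both comparisons, and of Prdx4, the ER peroxiredoxin, in DH-LMP2A. The call of Qsox1 in kFRA was lost without kFRA replicate 1 (adjusted p = 0.0763) or 3 (0.0604) or WT replicate 1 (0.0764) or 2 (0.0997). That of Prdx4 was lost without any DH-LMP2A replicate or WT replicate 1 or 2, at adjusted p from 0.0659 to 0.146.

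Of the 11 partners and clients 10 were tested. In kFRA against WT 1 was higher (median log2 fold change 0.20), in DH-LMP2A against WT 4 were higher (median 0.70), and in kFRA against DH-LMP2A 2 were lower (median -0.25), with no call in the other direction. Mzb1, a plasma cell ER protein that helps immunoglobulin assembly, rose in both comparisons with WT, at 810.4, 983.3 and 1384.1 CPM in WT, 3950.2, 3236.3 and 3895.0 in DH-LMP2A and 2611.1, 2016.2 and 2790.7 in kFRA, with log2 fold changes of 1.80 (SE 0.254, edgeR adjusted p = 0.0021) and 1.22 (SE 0.25, adjusted p = 0.0107). The genotypes did not overlap, in the order of Pdia4 and Pdia6. Tapbp, the tapasin that pairs with ERp57 in loading MHC class I, stood at 264.7, 244.1 and 270.1 CPM in WT, 575.9, 474.8 and 541.6 in DH-LMP2A and 276.7, 272.3 and 321.8 in kFRA. Tapbp rose in DH-LMP2A against WT (log2 fold change 1.03, SE 0.144, adjusted p = 0.00205), and was lower in kFRA than in DH-LMP2A (-0.87, SE 0.143, adjusted p = 0.00785), a call lost without DH-LMP2A replicate 1 (adjusted p = 0.0766) or kFRA replicate 1 (0.0577). The 2 other calls in DH-LMP2A, of the aminopeptidase Erap1 and the lipid transfer protein Mttp, were each lost without DH-LMP2A replicate 1 (adjusted p = 0.0846 and 0.135) and without 3 or more other single libraries. Erap1 was also the other gene lower in kFRA than in DH-LMP2A, a call lost without DH-LMP2A replicate 1 (0.0964) or kFRA replicate 1 (0.116) or 3 (0.0679). Calr and Canx, the lectin chaperones served by ERp57, passed in no comparison, and P4ha1, whose product joins PDI in prolyl 4-hydroxylase, differed by 0.14 and 0.07 from WT without passing.

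**Figure D5:**
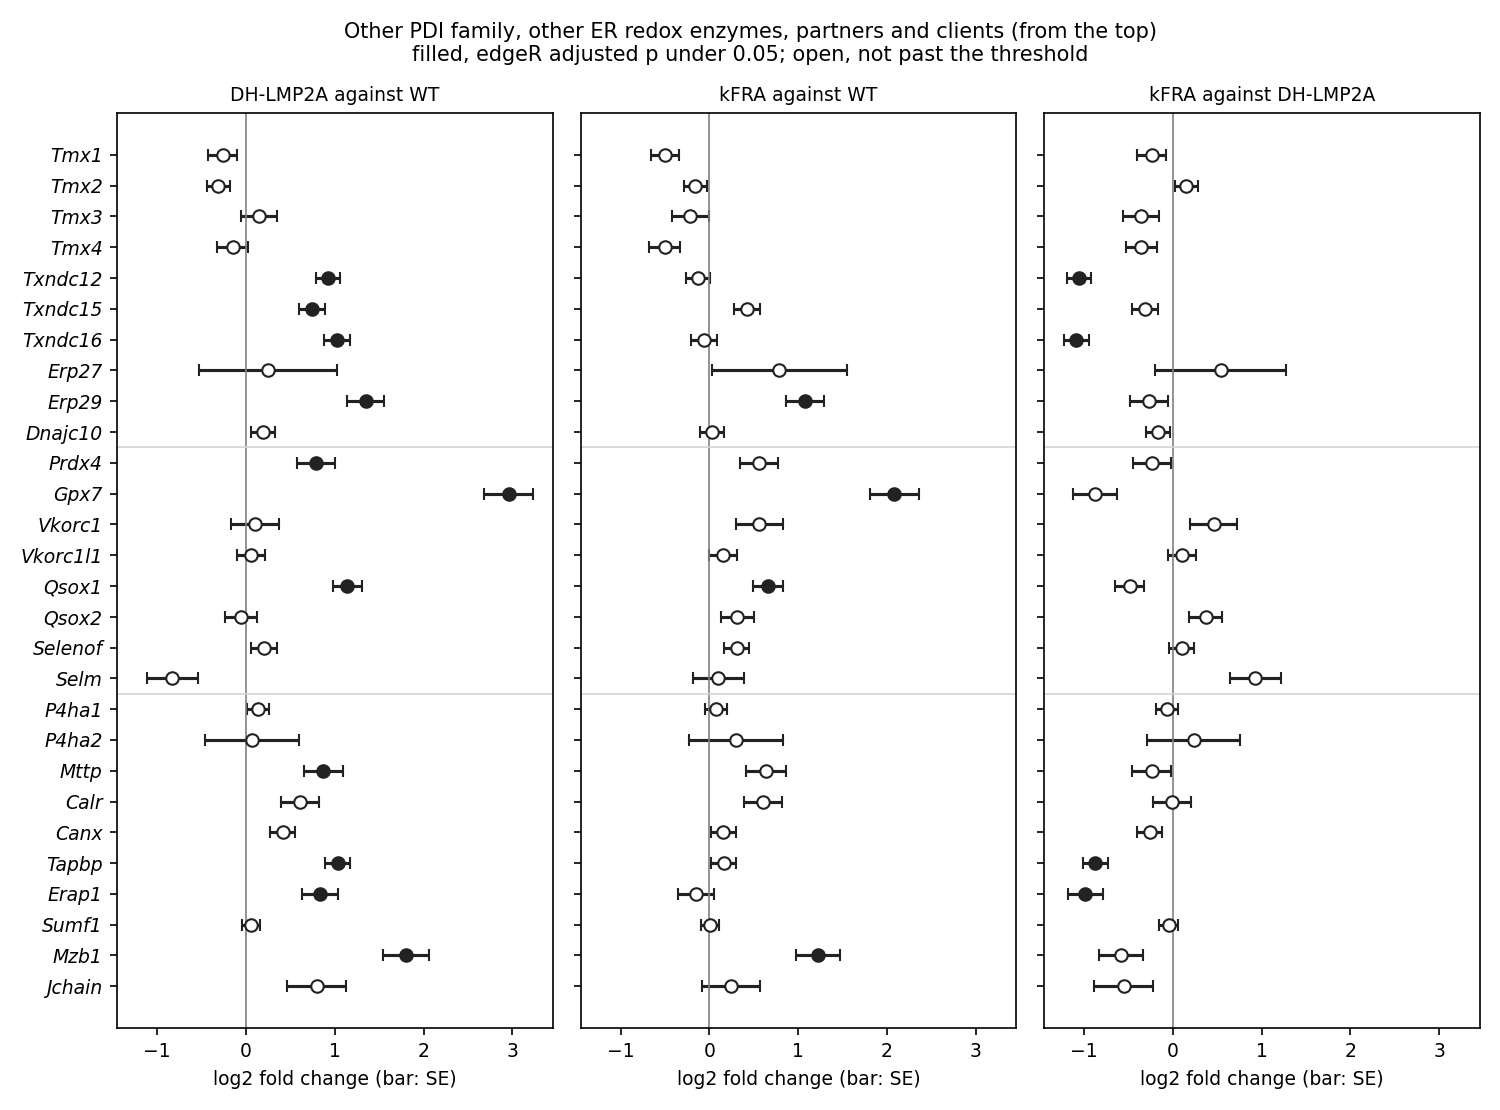
Log2 fold change (horizontal axis, bars of 1 standard error) of the tested genes of the other isomerase family, the other ER redox enzymes and the partners and clients, in 3 blocks from the top, for the 3 comparisons. Filled points have an edgeR adjusted p under 0.05, and Gpx7 lies farthest from 0, at 2.96 in DH-LMP2A and 2.08 in kFRA against WT.

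Among the unfolded protein response factors Ddit3 was the gene called higher in kFRA than in each other genotype. Of 8 such genes 3 were higher in kFRA than in WT (median log2 fold change 0.65), 2 in DH-LMP2A than in WT (median 0.31) and 1 in kFRA than in DH-LMP2A, with none lower. Ddit3, which encodes CHOP, stood at 21.17, 16.02 and 22.8 CPM in WT, 17.6, 20.65 and 26.36 in DH-LMP2A and 48.77, 33.3 and 47.23 in kFRA, above both other genotypes without overlap. Ddit3 rose in kFRA against WT by 1.11 in log2 terms (SE 0.213, edgeR adjusted p = 0.00787), and against DH-LMP2A by 1.0 (SE 0.212, adjusted p = 0.0278), the latter lost without DH-LMP2A replicate 1 (adjusted p = 0.109) or 2 (0.0931) or kFRA replicate 1 (0.122) or 3 (0.0911). Hspa5, which encodes BiP, stood at 1981.3, 1689.2 and 3060.5 CPM in WT, 2580.7, 2008.4 and 2335.7 in DH-LMP2A and 4697.7, 3409.1 and 4344.9 in kFRA. Its log2 fold change was 0.89 in kFRA against WT (SE 0.267, adjusted p = 0.0482), a call lost without kFRA replicate 1 (adjusted p = 0.153) or 3 (0.116) or WT replicate 1 (0.131) or 2 (0.155), and 0.04 in DH-LMP2A against WT (SE 0.265, adjusted p = 0.949). For Hspa5 all kFRA libraries also lay above all DH-LMP2A libraries, with a log2 fold change of 0.85 that did not pass (SE 0.267, adjusted p = 0.111). Pdia4 and Pdia6 were highest in DH-LMP2A, where Hspa5 overlapped WT. Hsp90b1, the ER chaperone GRP94, rose in both comparisons with WT (log2 fold changes 1.06 in kFRA and 1.07 in DH-LMP2A, adjusted p = 0.0183 and 0.021). Both Hsp90b1 calls were lost without WT replicate 1 (adjusted p = 0.0556 and 0.0631) or 2 (0.0711 and 0.078), the first also without kFRA replicate 1 (0.075) and the second without DH-LMP2A replicate 1 (0.109). Ern1, which encodes IRE1, rose in DH-LMP2A (log2 fold change 0.79, adjusted p = 0.0327), a call lost without any single library but DH-LMP2A replicate 1, at adjusted p from 0.065 to 0.104. Xbp1 passed in no comparison, with log2 fold changes of 0.27, 0.39 and -0.12. Atf4, Atf6 and Eif2ak3 passed in none either. Atf4 had a log2 fold change of 0.74 in kFRA against WT (edgeR adjusted p = 0.0765) and against DH-LMP2A (adjusted p = 0.143), with libraries overlapping in both.

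The members were also compared with each other by their profiles over the 9 libraries, as the root mean square difference of centred log2 CPM. After Pdia4 and Pdia6, the next closest pairs were P4hb and Pdia3 (0.138) and Erp44 and Ero1lb (0.145). Txndc5 was far from all other members, its nearest being Ero1l at 0.488, and Pdia5 farther still, its nearest being Txndc5 at 0.721. Among 9624 genes with a mean of at least 5 CPM, those nearest to the mean profile of the 10 members were Aga (0.06), Rpl10-ps3 (0.077), Rpl10 (0.087), Tmem59 (0.087) and Txndc15 (0.09), where the median gene differed by 0.38. Rpl10-ps3 and Rpl10 are a pseudogene and its parent, whose reads may have been split between them. Nearest to Txndc5 were Degs1 (0.106), Caskin2 (0.162), Polh (0.173), Glipr1 (0.206) and Tle3 (0.208), where the median gene differed by 0.637. Degs1, a desaturase of ceramide synthesis, averaged 59.59 ± 13.65 CPM for WT, 52.52 ± 6.082 for DH-LMP2A and 25.7 ± 1.77 for kFRA (SD, n = 3 each).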

How the data were processed

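Libraries were grouped by their labels. The authors deposited raw read counts per gene without normalization, with merged exon coordinates and gene lengths in bases, per the file headers. The submitters' processing notes name STAR 2.4.0a, featureCounts, Subread 1.5.0-p3 and DESeq2. The strand setting of the counting and how multi-mapping reads were handled are not given in the sources used here, so genes overlapping on opposite strands are uncertain. The table's own coordinates are printed, on GRCm38. Spans of 6 of the 10 members were identical to GENCODE M21.

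The test was edgeR's (4.0.16, in R 4.3.3): filterByExpr left 14199 genes, libraries were scaled by TMM, and all 9 libraries entered a quasi-likelihood fit with genotype as the factor. The 3 contrasts were tested 2-sided, and p-values were adjusted over all genes tested by the Benjamini-Hochberg method at 0.05. The standard error (SE) is the log2 fold change divided by the square root of F. Levels per kb divide CPM by the table's gene length. Promoter windows came from RefSeq GRCm38.p6. The model was tested on simulated counts with the same dispersion for every gene, which does not show how it performs on the spread of these libraries. Each library is a different mouse. The p-values set differences between genotypes against a spread between mice that was estimated over all 3 genotypes together. Replicates differed beyond sampling noise, with a chi-square per degree of freedom of 17.3 to 164.

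The genes named are the 10 members, the called or best-known genes of the fixed pathway lists, and the 5 genes nearest in profile to the member mean and to Txndc5. The members and lists were chosen with earlier results of these data known. Pdia2, Pdilt, Agr2, Agr3, Casq1, Casq2, Gpx8 and P4ha3 did not pass the filter. The alternatives tried were library size alone, size factors and the Wald test of DESeq2 1.42.0, other low-count filters, leaving out immunoglobulin genes, a replicate block, marker and Xist covariates, fits of 6 libraries, an adjusted p under 0.01 and leaving out each replicate. The plasma cell marker covariate was added after the data had been seen. The T cell markers gave 0, 1 and 0 higher and 0, 0 and 1 lower calls in kFRA against WT, DH-LMP2A against WT and kFRA against DH-LMP2A, the pancreatic acinar markers 1, 0 and 0 higher, the erythroid markers 5, 5 and 0 higher, the megakaryocyte markers 1, 0 and 0 higher among 1 tested, and the cell cycle genes none.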

Additional observations from a re-analysis of the deposited data

How the results depend on the processing

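Of 537 member fold changes under alternatives, 466 kept direction and side of the threshold, 47 lost and 7 gained a call, and 17 reversed. The 537 include the alternative of an adjusted p under 0.01, which kept the main fit and changed the threshold alone. With the B cell marker covariate 0, 4 and 0 members passed in kFRA against WT, DH-LMP2A against WT and kFRA against DH-LMP2A, with 321, 830 and 242 calls over all genes (2523, 1756 and 713 without it). There the standard error of Txndc5 in kFRA against WT went from 0.219 to 0.446 and its log2 fold change from -1.198 to -1.156. At an adjusted p under 0.01 there were 3, 4 and 0 (975, 765 and 306 genes). Leaving out each replicate gave 3 to 6, 4 to 5 and 0 to 1 members. Calls over all genes in these fits ran from 1271 to 5632, 932 to 1408 and 352 to 3299. The plasma cell marker covariate gave 3 in DH-LMP2A against WT (880 genes). The DESeq2 Wald test called 8, 7 and 1 members and 3515, 2528 and 1405 genes. Without kFRA replicate 2 the genes called rose to 5632 in kFRA against WT and 3299 in kFRA against DH-LMP2A, with 6 and 1 members called.

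All reversals were of uncalled differences. In kFRA against WT Ero1l turned to 0.168 with library size alone and, leaving out replicates, ranged from -0.176 to 0.06 (without WT replicate 3). In DH-LMP2A against WT Txndc5 turned to 0.262 with library size alone. In kFRA against DH-LMP2A, P4hb turned to 0.245, Pdia3 to 0.134 and Ero1lb to 0.149 with the plasma cell marker covariate, and Pdia3 to 0.003 without immunoglobulin genes. Leaving out each replicate there gave ranges of -0.175 to 0.094 for P4hb, -0.103 to 0.121 for Pdia3, -0.635 to 0.08 for Pdia5 and -0.123 to 0.08 for Ero1lb, with values above 0 without DH-LMP2A replicate 1, 2 or 3 or kFRA replicate 2. The cause was not tested.

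With the replicate number as a block 6, 5 and 1 members passed, with 2930, 2067 and 685 calls over all genes. Same-numbered libraries are different mice and correlated by -0.219 to 0.207 in their deviations from the group means. The replicate 3 libraries correlated with each other by 0.131, 0.161 and 0.181, and libraries of unlike number by -0.287 to 0.3. Deviations within groups of 3 cannot show whether same-numbered libraries were handled together. Depth limits mainly Pdia5, which was left untested at a mean of at least 5 CPM.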
